A study of Mus musculus with 8 samples.

Results

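Epithelial cells of mouse colon organoids were compared with epithelial cells isolated directly from mouse colon tissue by droplet-based single-cell RNA sequencing, with 2 libraries of each source among the 8 libraries of the series. Barcodes were kept when they held at least 500 genes, at most 10% of unique molecular identifiers (UMIs) from mitochondrial genes and at least 1 UMI of Epcam, a pan-epithelial adhesion molecule, which left 19882 of the 49631 barcodes of these 4 libraries. These were 4829 and 6554 organoid cells and 4399 and 4100 tissue cells. Their UMIs were summed per library, and the library was the unit of comparison, 2 against 2.

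Both sources came from C57BL/6 mice, males of 6 to 12 weeks as the study's methods state, with no transgene and no deletion named for these libraries. The organoids were grown from colonic crypts in Matrigel, an extract of basement membrane, with no stromal culture named for these libraries. The full organoid medium described for these cultures held epidermal growth factor (EGF), a Wnt surrogate, the GSK3 inhibitor CHIR-99021, R-spondin 1, the BMP antagonist noggin and an inhibitor of the TGF-beta type I receptor, whereas the labels of these libraries name no medium. Organoids were dispersed with TrypLE alone. Tissue crypts were first released with EDTA and DTT and then treated with TrypLE, so that the source of the cells and the way they were released cannot be told apart. The labels call the libraries of a group replicates without naming the animal or culture behind each, and p-values measure the spread between these libraries.

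In the colon, stem cells at the crypt base divide under Wnt and R-spondin signals from the underlying stroma, and BMP signals towards the surface promote maturation. Their progeny become absorptive colonocytes, mucus-secreting goblet cells, hormone-producing enteroendocrine cells or chemosensory tuft cells as they move up the crypt. Organoid media replace the stromal signals of the crypt base by added factors and inhibitors. The data therefore allow the stem, signalling, lineage and metabolic genes of the epithelium to be set side by side in cells held under these factors and in cells taken from the organ.

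Organoid libraries were the deeper ones, with a median of 35350 and 10452.5 UMIs per kept cell, against 5248 and 4166 in tissue. Summed, the libraries held 187508792 and 90985297 UMIs in organoids and 46750598 and 36667698 in tissue. The filters kept 80.7% and 45.1% of organoid barcodes and 36.2% and 24.2% of tissue barcodes, and the median mitochondrial share over all barcodes was 2.34% and 8.63% in organoids and 13.3% and 16.2% in tissue. All 8 epithelial markers, among them Krt8, Cdh1 and Vil1, were found in each library. T and NK cell markers summed to 0.677 and 0.979 counts scaled to 1000000 UMIs (CPM) in organoids and to 7.89 and 7.47 CPM in tissue, with 4 and 1 against 25 and 29 cells holding a UMI of the pan-leukocyte gene Ptprc. Hemoglobin genes reached 89.6 CPM in tissue replicate 2 and at most 0.561 CPM in the other 3 libraries. Any pair of libraries shared 6 to 15 cell barcodes. The tissue libraries resembled each other more than the organoid libraries did: of 4575 well-expressed genes (log2 CPM averaging 5 or more), 166 differed more than 2-fold between the organoid libraries and 1 between the tissue libraries.

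Across all genes, 9416 of 17016 differed between organoids and tissue at an adjusted p under 0.05 (edgeR quasi-likelihood test with Benjamini-Hochberg adjustment), which is 55.3% of the genes tested. Of these, 4770 (28%) were higher and 4646 (27.3%) were lower in organoids, and the split moved with the scaling, to 4630 and 4800 with RLE size factors and to 3610 and 5056 with library totals alone. The CPM values of the groups did not overlap for 78.0% of genes. The median log2 fold change over all genes was 0.04, and it was -0.17 when libraries were scaled by their totals alone, so that fold changes, which use TMM scaling, stand above the plain ratio of the CPM values, which use library totals. Without tissue replicate 1, 2733 genes were higher and 3364 lower, and without tissue replicate 2 the counts were 2931 and 3529. Because so many genes passed the test, the count for each gene list has to be read against these shares, and the lists are described by their counts and medians with no test of the list.

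Ly6c1, a GPI-anchored surface protein encoded at chr15:75044018-75048830 (GRCm38), stood at 366 and 337 CPM in organoids and at 5.05 and 4.06 CPM in tissue, a log2 fold change of 6.50 ± 0.35 (SE). Ly6g, a further member of this family on chromosome 15, stood at 443 and 504 CPM in organoids against 29.4 and 24.9 CPM in tissue. The rule that named both genes asks for CPM values that do not overlap between the groups, so their separation in each library is no added support. Phgdh, the first enzyme of serine synthesis, rose by 4.37 on the log2 scale, the linker histone gene Hist1h1b by 4.29, the mitochondrial ADP/ATP carrier Slc25a4 by 3.92, the actin regulator Fmnl2 by 3.64 and the early response gene Ier3 by 3.59.

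Mptx1, a mucosal pentraxin encoded at chr1:174330518-174332873, stood at 9077 and 12540 CPM in tissue and at 0.245 and 2.87 CPM in organoids, and Zg16, a lectin of the mucus layer, at 3200 and 3840 CPM against 0.576 and 0.802 CPM. Their log2 fold changes were -12.71 ± 1.23 and -12.12 ± 0.51. The mean level of Zg16 was 5107 times higher in tissue than in organoids. Sycn, known as a zymogen granule protein of the pancreas, fell by 10.31 on the log2 scale, and the log2 fold changes were -8.57 for the tissue kallikrein Klk1, -7.82 for the goblet cell gene Sval1, -7.09 for the membrane mucin Muc3 and -6.78 for the scavenger receptor Dmbt1, a mucosal defence protein. With Lgr5 and Muc2, whose values are given with their lists, these are the 16 genes named for the size of their change. Each was also called both in cycling and in non-cycling cells, which are parts of the same cells and no independent support.

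**Figure D1:**
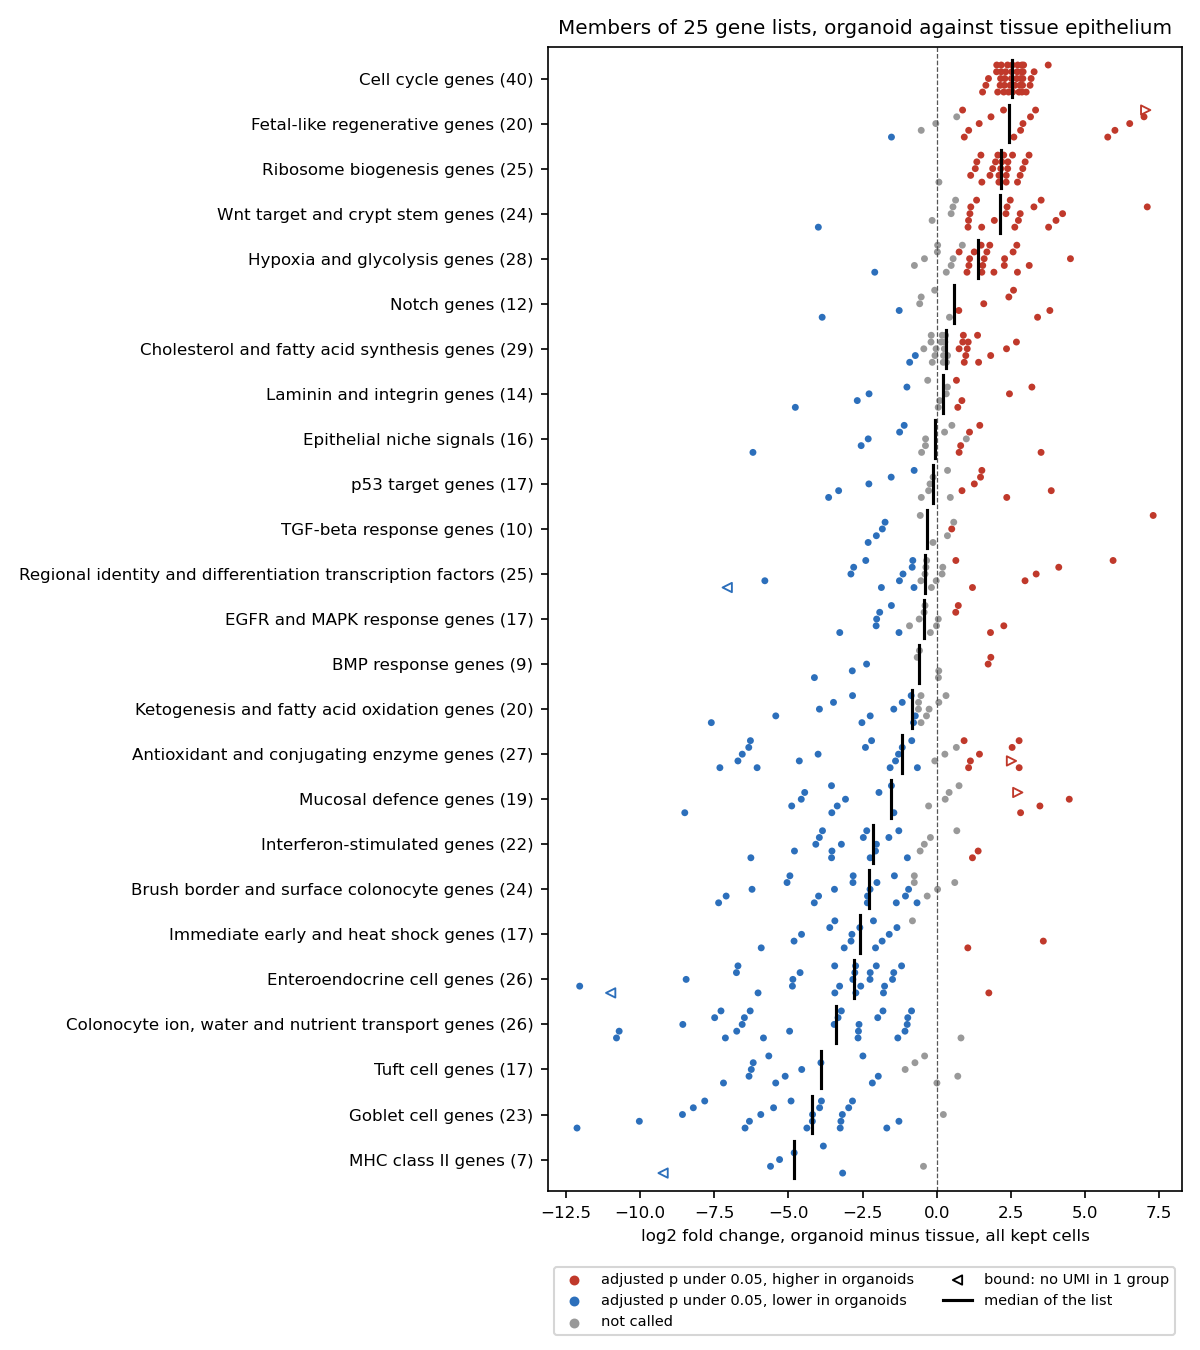
Each point is a gene of 1 of 25 lists, placed on the horizontal axis by its log2 fold change between organoids and tissue (all kept cells) and coloured by its call, with the number of genes tested in brackets, a bar at the median of the list and an open triangle at the bound of a gene without a UMI in 1 group. Cell cycle, fetal-like, ribosome biogenesis and Wnt target genes lie mostly to the right of 0 with medians from 2.14 to 2.55, and MHC class II, goblet, tuft, transport and enteroendocrine genes lie mostly to the left with medians from -4.80 to -2.79.

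Stem cell and Wnt target genes were mostly higher in organoids. Of 24 genes tested, 19 were higher and 1 was lower, with a median log2 fold change of 2.14. Lgr5 (chr10:115450311-115587780) is the R-spondin receptor that marks crypt base stem cells. It stood at 128 and 284 CPM in organoids and at 24.2 and 16.1 CPM in tissue. The organoid libraries themselves differed more than 2-fold. A lack of overlap between the groups was part of a rule that named Lgr5 and held for 78.0% of all genes, so it is no added support. The log2 fold change of Lgr5 was 3.52 ± 0.36 (adjusted p = 8.8e-05). Ascl2, a transcription factor of the stem cell state, stood at 60.2 and 48.6 CPM against 5.33 and 4.12 CPM (3.77 ± 0.30). Axin2, a negative regulator that Wnt signalling itself induces, stood at 76.5 and 95.7 CPM against 22.01 and 16.5 CPM (2.37 ± 0.24). The 3 genes were low in both tissue libraries and differed 3-fold or more between any organoid and any tissue library. Cdca7, a cell cycle regulated Myc target, rose by 2.75 on the log2 scale.

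Within this list the size of the difference was uneven. Sp5, a Wnt-induced transcription factor, was nearly absent from tissue, with 16.9 and 14.2 CPM in organoids against 0.0856 and 0.191 CPM. The receptor gene Tnfrsf19 rose by 4.02, the Wnt-induced growth genes Ccnd1 by 2.63 and Myc by 2.48, the adhesion receptor Cd44 by 2.33 and Rnf43, a ligase that removes Wnt receptors, by 1.94 on the log2 scale. In contrast, the stem and progenitor genes Sox9 (-0.16, adjusted p = 0.60), Slc12a2 (0.49, adjusted p = 0.18), Lrig1 (0.55, adjusted p = 0.13) and Znrf3 (0.64, adjusted p = 0.081) did not pass the test. The secreted Wnt inhibitor Wif1 was the gene that was lower, at 0.0427 and 0.0879 CPM in organoids and 0.834 and 1.47 CPM in tissue. Of the 17 list genes whose log2 CPM averaged 3 or more, Lgr5, Znrf3, Ephb2 and Cd44 differed more than 2-fold between the organoid libraries and none did so between the tissue libraries.

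**Figure D2:**
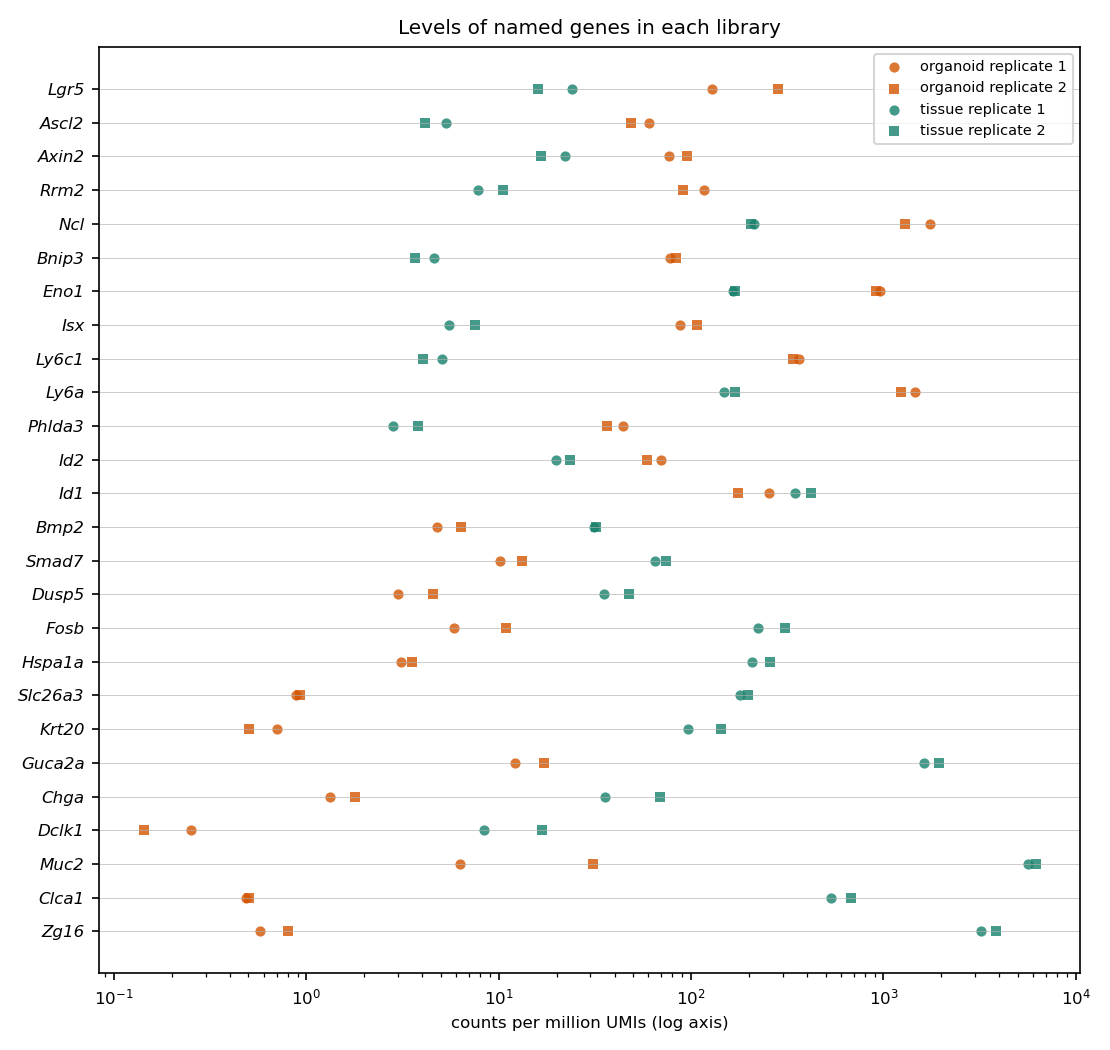
The plot gives the level of 26 named genes in each of the 4 libraries, in CPM on a log axis, with circles for replicate 1 and squares for replicate 2. Lgr5, Bnip3, Isx and Ly6c1 lie at higher levels in both organoid libraries, and Id1 is the gene whose groups lie closest, at 253 and 175 CPM in organoids and 349 and 418 CPM in tissue.

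Genes that respond to BMP signals did not move together. Of 9 genes tested, 2 were higher and 3 were lower, beside 28% and 27.3% of all genes. The median of -0.58 ranged from -1.02 without organoid replicate 1 over -0.38 without tissue replicate 1 to -0.19 without organoid replicate 2. Id1, an inhibitor of differentiation and a direct BMP target, stood at 253 and 175 CPM in organoids and at 349 and 418 CPM in tissue, a log2 fold change of -0.58 ± 0.34 that did not pass the test (adjusted p = 0.17). It did pass when libraries were scaled by their totals alone, at no more than 5% mitochondrial UMIs or without organoid replicate 1, and in the last of these fits 5 genes of the list were lower. Smad7, which feeds back on BMP and TGF-beta receptors, was lower, at 10.2 and 13.2 CPM in organoids against 64.7 and 74.3 CPM in tissue (-2.36 ± 0.21). Its relative Smad6, which acts on BMP receptors, fell by 2.85 on the log2 scale. Id2 went the other way, with 70.1 and 59.3 CPM in organoids and 19.9 and 23.3 CPM in tissue (1.82 ± 0.26).

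Among signals that the epithelium itself sends to the stroma, Bmp2 and Ihh were lower, while the BMP ligand Bmp7 was not called (0.26, adjusted p = 0.60). Bmp2 stood at 4.78 and 6.35 CPM in organoids and at 31.5 and 32.0 CPM in tissue (-2.31 ± 0.20, adjusted p = 3.2e-05), and Ihh, the Hedgehog ligand of mature epithelium, at 20.8 and 15.3 CPM against 42.9 and 49.2 CPM (-1.10 ± 0.28). The growth factor gene Fgf1 fell by 2.55 on the log2 scale, whereas the angiogenic factor Vegfa rose by 0.75. Over the 16 niche signal genes tested, 5 were higher and 5 lower, beside 28% and 27.3% of all genes. The median of -0.06 ranged from -0.21 to 0.13 with single libraries left out. Without tissue replicate 2 the counts were 2 higher and 3 lower, the median was 0.13, and Ihh was no longer called.

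TGF-beta response genes were mixed as well, with 2 of 10 higher and 4 lower, beside 28% and 27.3% of all genes. Skil, which represses SMAD proteins and is induced by them, stood at 7.95 and 12.2 CPM in organoids against 53.1 and 61.2 CPM in tissue (-2.31 ± 0.22). Cdkn2b, a cell cycle inhibitor induced by TGF-beta, stood at 10.2 and 7.47 CPM against 37.9 and 48.4 CPM (-2.03 ± 0.29). Ccn2, a secreted matrix protein that is also a target of YAP, moved in the opposite direction, from 0.0642 and 0.191 CPM in tissue to 14.6 and 18.7 CPM in organoids, and Tgif1, a repressor, rose by 0.51 on the log2 scale. The median of the list was -0.34, and it was 0.32 and -0.82 without organoid replicates 1 and 2 and -0.76 and -0.07 without tissue replicates 1 and 2.

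Of 17 EGF receptor and MAPK response genes, 6 were lower and 4 higher, beside 27.3% and 28% of all genes. The median was -0.42. The lower genes included the feedback regulators Dusp5 (2.99 and 4.54 CPM in organoids, 35.3 and 47.5 CPM in tissue) and Errfi1 (29.6 and 42.1 CPM against 143 and 191 CPM), and the EGF receptor ligand Hbegf (44.7 and 59.1 CPM against 232 and 260 CPM). Each of the 3 genes was at least 3 times as high in either tissue library as in either organoid library. Phlda1, another gene induced by growth factors, rose by 1.81 and the ETS factor Etv4 by 0.64 on the log2 scale. With either tissue library left out, 2 genes of the list were higher instead of 4. The median was -0.22 without tissue replicate 2 and -0.82 with cells thinned to 2000 UMIs.

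Among Notch genes, which steer the choice between absorptive and secretory fate, 6 of 12 were higher and 2 lower, with a median of 0.59. The receptor genes Notch1 and Notch2 rose by 0.74 and 1.58 on the log2 scale. The ligands divided: Jag2 rose from 1.11 and 1.17 CPM in tissue to 10.5 and 17.8 CPM in organoids, whereas Dll1, which secretory progenitors express, fell from 8.32 and 7.53 CPM to 0.491 and 0.418 CPM. Hes1, the main Notch effector of the crypt, stood at 93.1 and 130 CPM against 233 and 136 CPM and did not pass the test (-0.52, adjusted p = 0.17). With every cell thinned to 2000 UMIs, 3 of 9 genes tested were higher, 3 were lower and the median was -0.13.

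Cell division genes were higher without exception: all 40 cell cycle genes were called higher, with log2 fold changes from 1.54 to 3.76 and a median of 2.55. Rrm2, a subunit of the reductase that makes deoxynucleotides, stood at 117 and 90.9 CPM in organoids against 7.83 and 10.5 CPM in tissue (3.76 ± 0.32). Ccne1, a cyclin of the entry into S phase, rose by 3.28 and the mitotic kinase gene Aurka by 3.18 on the log2 scale. Ribosome biogenesis genes rose with them, with 24 of 25 genes higher and none lower (median 2.16). The nucleolar protein Ncl stood at 1736 and 1295 CPM against 213 and 205 CPM (3.11 ± 0.37), Nolc1, its partner in the nucleolus, rose by 2.98 and the spermidine synthase Srm by 2.90 on the log2 scale. Utp20, a factor of small subunit assembly, was the member that did not pass (0.07, adjusted p = 0.77).

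The share of cells that were cycling was counted after each cell had been thinned to 2000 UMIs, so that cells were compared at the same depth. Cells with 3 or more UMIs of the 40 cell cycle genes were classed as cycling and cells with none as non-cycling. Cells between these limits were in neither class but were counted in the total. Cells under 2000 UMIs were left out, so that 4754 of 4829 and 4548 of 6554 organoid cells and 2436 of 4399 and 2750 of 4100 tissue cells were counted, and the shares are of these cells. Cycling cells made up 90.0% (95% exact binomial interval 89.1 to 90.9%) and 87.4% (86.4 to 88.4%) of organoid cells and 18.1% (16.6 to 19.7%) and 20.98% (19.5 to 22.6%) of tissue cells. The intervals cover counting error only. A comparison of 2 libraries with 2 cannot reach an exact permutation p below 0.33, and no test is given, but the organoid and tissue libraries lay far apart by this count. Non-cycling cells were rare in organoids, 119 and 120 cells, and frequent in tissue, 1155 and 1045 cells. With cells not thinned the mean shares were 96.8% and 51.2%. The sums over all cells cannot tell fewer cells of a type from less RNA per cell. Fits within the cycling and non-cycling classes are given below and split the cells by division only coarsely.

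**Figure D3:**
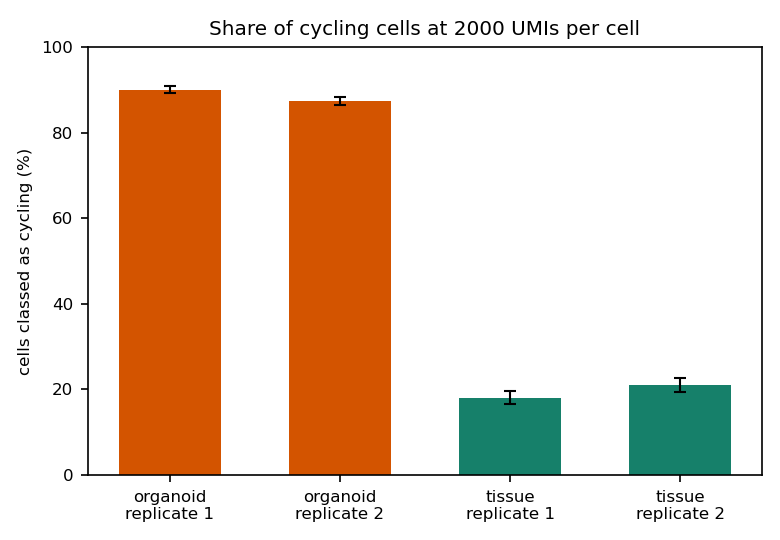
Bars give the percentage of cells with at least 2000 UMIs that were classed as cycling in each library after thinning, with exact 95% binomial intervals as error bars. Both organoid libraries lie at 87.4% or above and both tissue libraries at 20.98% or below.

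Genes of mature absorptive colonocytes were lower almost throughout. Of 26 transport genes, 25 were lower and none was higher, with a median of -3.39. Slc26a3, the chloride and bicarbonate exchanger of the surface, stood at 0.880 and 0.923 CPM in organoids and at 180 and 199 CPM in tissue (-7.48 ± 0.31). Guca2a, the precursor of the fluid-regulating peptide guanylin, stood at 12.1 and 17.1 CPM against 1632 and 1952 CPM, and the amino acid transporter Slc6a14 at 2.53 and 2.74 CPM against 231 and 248 CPM. By the means of the libraries, the 3 genes were 210, 123 and 91.1 times higher in tissue. The carbonic anhydrase Car4 (0.0960 and 0.0440 CPM against 173 and 159 CPM) and the butyrate and iodide carrier Slc5a8 (0.112 and 0.121 CPM against 231 and 232 CPM) were lower still. Car2, a cytosolic carbonic anhydrase, was the member that did not pass, at 1514 and 975 CPM in organoids against 781 and 915 CPM (0.82, adjusted p = 0.10).

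Brush border and surface genes were lower as well. Of 24 genes, 19 were lower and none was higher, with a median of -2.29. Krt20, the keratin of differentiated surface cells (chr11:99428403-99438150), stood at 0.704 and 0.506 CPM in organoids against 96.2 and 144 CPM in tissue (-7.35 ± 0.40), Muc3 at 7.35 and 10.6 CPM against 1527 and 1288 CPM, and the fatty acid binding protein Fabp2 at 2.43 and 1.96 CPM against 173 and 217 CPM. The 3 genes were far apart in the groups with little spread inside them. Structural genes of the microvillus covered a wide range: the actin bundler Espn fell by 4.12, the motor Myo1a by 2.82 and the bundler Vil1 by 0.66 on the log2 scale, while Eps8 (0.61, adjusted p = 0.065) and the motor Myo7b (0.03, adjusted p = 0.93) did not pass.

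Goblet cell genes had the lowest median of the 3 secretory lists, -4.19, with 22 of 23 genes lower. Muc2, the gel-forming mucin of the colon (chr7:141690340-141754693), stood at 6.29 and 31.1 CPM in organoids and at 5649 and 6200 CPM in tissue (-8.20 ± 0.77). Clca1, a protease that processes mucus, stood at 0.485 and 0.506 CPM against 535 and 680 CPM (-10.02 ± 0.41). The organoid libraries were apart in Muc2 and close in Clca1, and both lay far below tissue. The lineage factors were lower too, Spdef by 4.19 and Atoh1 by 2.97 on the log2 scale, while Foxa3, a further factor of the lineage, stood at 49.3 and 42.9 CPM against 40.1 and 53.2 CPM and was not called (0.22, adjusted p = 0.49). Over the list, goblet genes summed to 509 and 659 CPM in organoids and to 25600 and 28600 CPM in tissue.

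Enteroendocrine genes were lower in 25 of 26 cases, with a median of -2.79. Chga, a core protein of hormone granules, stood at 1.33 and 1.79 CPM in organoids and at 35.6 and 68.9 CPM in tissue (-4.86 ± 0.36). The appetite hormone gene Pyy stood at 1.02 and 5.97 CPM against 424 and 376 CPM, and Chgb, a second granule protein, at 4.23 and 19.3 CPM against 102 and 173 CPM. Pyy and Chgb differed more than 2-fold between the organoid libraries. Sst, which encodes somatostatin, had no UMI in either organoid library against 956 and 852 UMIs in tissue, and it was at least 2028-fold lower by the limit that 3 UMIs over both organoid libraries set. Gcg, the proglucagon gene, had 0.0213 and 0.0110 CPM against 100 and 93.1 CPM. The exception was Neurog3, the factor that starts this lineage, with 3.02 and 2.95 CPM in organoids and 1.37 and 0.682 CPM in tissue (1.76 ± 0.37, adjusted p = 0.0038).

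Tuft cell genes were sparse in all libraries, and 12 of 17 were lower with none higher (median -3.90). Dclk1, a kinase that marks the lineage, stood at 0.251 and 0.143 CPM in organoids and at 8.43 and 16.9 CPM in tissue (-5.66 ± 0.48). Pou2f3, the factor that specifies tuft cells, was found at like levels, 2.04 and 1.77 CPM against 1.84 and 2.67 CPM (0.01, adjusted p = 0.99, with a standard error of 0.33 on the log2 scale). Cells with a UMI of Ptprc were more frequent in tissue, and without them 1 gene of the list was higher, 11 were lower and the median was -2.85. Whether the cells left out were leukocytes or tuft cells was not tested.

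Mucosal defence genes were lower in 11 of 19 cases and higher in 4. The acute phase gene Saa1 stood at 1.14 and 0.121 CPM in organoids and at 349 and 257 CPM in tissue. Lypd8, which keeps motile bacteria off the epithelium, stood at 378 and 296 CPM against 4590 and 4693 CPM (-3.54 ± 0.40), and the cytokine Il18 at 8.02 and 5.54 CPM against 154 and 201 CPM (-4.45 ± 0.36). The alarmin Il33 was on the other side, with 17.1 and 22.97 CPM in organoids and 2.97 and 3.55 CPM in tissue (2.83 ± 0.22), as was Nos2, the inducible nitric oxide synthase, which rose by 3.48 on the log2 scale. Reg3b, an antimicrobial lectin, was listed at 0 CPM in tissue replicate 1 and at 10.4 CPM in tissue replicate 2, so that the latter library carries all of its tissue level.

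MHC class II genes, which present antigen, were lower in 6 of 7 cases with a median of -4.80. The invariant chain Cd74 stood at 0.496 and 0.758 CPM in organoids against 25.2 and 14.6 CPM in tissue (-4.80 ± 0.33), and H2-Aa had no UMI in organoids against 440 and 126 UMIs in tissue, at least 596-fold lower by the limit of 3 UMIs over both organoid libraries. Leukocyte markers did not all move with this list. Of 10 T and NK cell markers, 3 were found in each organoid library and 9 in each tissue library. Cd3e, Cd3d and Cd3g stood at 0 in organoids and at most at 0.518 CPM in tissue. Trac was higher in organoids, at 0.368 and 0.374 CPM against 0.086 and 0.055 CPM. Of 8 myeloid markers, 5 and 4 were found in organoids and 8 in each tissue library. Their summed level was 3.32 and 7.39 CPM against 19.1 and 7.66 CPM, with Cd68 higher in organoids (2.76 and 6.32 CPM against 1.84 and 1.75 CPM). B and plasma cell markers summed to 0.732 and 0.693 CPM in organoids and to 0.365 and 0.328 CPM in tissue. Without the cells that held a UMI of Ptprc, 5 of 6 MHC class II genes tested were lower and the median was -2.12. Doublets and free RNA were not estimated, and their part in these low levels was not tested.

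Interferon-stimulated genes were lower in 16 of 22 cases and higher in 2, with a median of -2.15. Ifih1, a sensor of viral RNA, stood at 6.66 and 9.96 CPM in organoids and at 29.5 and 28.6 CPM in tissue (-1.61 ± 0.20), and Oas1a, a synthase of the antiviral response, at 9.93 and 9.07 CPM against 25.9 and 28.4 CPM (-1.28 ± 0.22). Bst2, which tethers budding viruses, was higher, at 46.5 and 31.5 CPM against 20.3 and 20.3 CPM (1.20 ± 0.29). The median was the same to 2 decimals without Ptprc-positive cells and was -1.19 with cells thinned to 2000 UMIs, where 10 of 17 genes tested were lower.

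Glycolysis and hypoxia genes were mostly higher, with 19 of 28 called higher and 1 lower (median 1.38). Bnip3, a mitophagy receptor induced by low oxygen (chr7:138890836-138909519), stood at 78.2 and 83.8 CPM in organoids and at 4.62 and 3.68 CPM in tissue (4.51 ± 0.26, adjusted p = 4.6e-06). The cytokine Mif stood at 1325 and 1641 CPM against 196 and 199 CPM, and the glycolytic enzyme Eno1 at 959 and 912 CPM against 165 and 169 CPM. The libraries of a group were close in each of the 3 genes. The enzymes Pgk1 (2.28), Pgam1 (1.93), Ldha (1.79) and Tpi1 (1.55) rose as well on the log2 scale, and so did Car9 (1.60), a carbonic anhydrase of hypoxic cells. The glucose transporter Slc2a1 (0.03, adjusted p = 0.91), the first glycolytic kinase Hk2 (-0.41, adjusted p = 0.22) and Kdm3a (0.02, adjusted p = 0.94), a demethylase induced by hypoxia, did not pass. Pfkfb4, an enzyme that sets glycolytic flux, fell by 2.09. Without tissue replicate 1, 10 genes were higher, and without tissue replicate 2, 12 were.

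The promoters of the listed genes were searched for ACGTG, the core bound by hypoxia-inducible factors, on both strands and with overlaps allowed, in the 300 bases from 250 before to 50 after each start site listed by RefSeq on GRCm38.p6. Of the 28 list genes 26 had a promoter in the table, and 17 of them (65.4%) held the core, against 21.8% of 27025 genes. This share covers the list whatever the call of its genes. The core was held by Slc2a1 and Hk2, which were not called, and not by Eno1 and Tpi1, which were higher. The 120 bases before the start site are shown for the 5 genes called higher with the largest differences that held the core there, with the matches in capitals. The windows are read 5′ to 3′ on the strand of the gene and show that several matches form the palindrome CACGTG, which contains the core on both strands and is also the sequence of the E-box that other factors bind.
Bnip3, chr7:138909507-138909626, minus strand: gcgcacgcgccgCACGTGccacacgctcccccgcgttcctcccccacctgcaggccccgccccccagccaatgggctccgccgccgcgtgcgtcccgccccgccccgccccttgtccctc
Ankrd37, chr8:45999851-45999970, minus strand: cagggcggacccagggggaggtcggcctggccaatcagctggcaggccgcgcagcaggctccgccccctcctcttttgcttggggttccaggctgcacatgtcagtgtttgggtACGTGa
Pfkfb3, chr2:11502091-11502210, minus strand: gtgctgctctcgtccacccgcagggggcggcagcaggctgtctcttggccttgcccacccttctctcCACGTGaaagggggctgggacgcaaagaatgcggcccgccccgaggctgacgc
Pgam1, chr19:41911751-41911870, plus strand: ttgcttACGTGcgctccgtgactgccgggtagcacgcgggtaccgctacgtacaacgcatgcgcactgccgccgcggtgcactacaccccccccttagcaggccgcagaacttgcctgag
Ldha, chr7:46845684-46845803, plus strand: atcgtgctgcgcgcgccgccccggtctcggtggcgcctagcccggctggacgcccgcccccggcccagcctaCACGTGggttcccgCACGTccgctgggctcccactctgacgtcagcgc
A match is a description of the sequence alone. The same search of the Wnt target list for CTTTGA, the core for TCF/LEF factors, is void, since only 16 of its 26 genes had a promoter in the table.

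Ketogenesis and fatty acid oxidation genes were lower in 12 of 20 cases and higher in none (median -0.82). Ppargc1a, a coactivator of mitochondrial biogenesis, stood at 7.39 and 12.8 CPM in organoids and at 139.7 and 115.0 CPM in tissue (-3.48 ± 0.27). Cpt1a, which admits fatty acids to mitochondria, fell by 2.84 on the log2 scale. Of the mitochondrial enzymes of beta-oxidation, Acadvl fell by 1.45 and Hadhb by 0.72, whereas Acadm (-0.61, adjusted p = 0.079), Hadha (-0.53, adjusted p = 0.10) and Acadl (-0.34, adjusted p = 0.34) were not called.

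Lipid synthesis genes showed a smaller shift, with 12 of 29 higher and 2 lower and a median of 0.30. The desaturase gene Scd1 stood at 49.5 and 72.8 CPM in organoids against 14.6 and 12.8 CPM in tissue (2.35 ± 0.22), and Pmvk, a kinase of the mevalonate pathway, rose by 1.82 on the log2 scale. Acly, which makes cytosolic acetyl-CoA, was lower by 0.91, and Hmgcs1, an enzyme of the mevalonate pathway, by 0.72. Without tissue replicate 1, 4 genes of the list were higher, and without tissue replicate 2, 3 were and the median was 0.15. With library totals alone it was 0.083.

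Genes of detoxifying enzymes changed in both directions. Of 27 genes, 16 were lower and 8 higher, with a median of -1.16. The sulfotransferases Sult1a1 (1.04 and 1.20 CPM in organoids, 232 and 180 CPM in tissue) and Sult1b1 (1.87 and 1.23 CPM against 175 and 177 CPM) and the cytochrome Cyp2c55 (2.92 and 1.43 CPM against 182 and 372 CPM) were lower. The glutathione peroxidase Gpx2, at 3685 and 2325 CPM against 494 and 561 CPM, the transferase Gsta4, at 166 and 128 CPM against 23.2 and 27.7 CPM, and Gclm, a subunit of the enzyme that makes the glutathione precursor, at 255 and 147 CPM against 88.1 and 90.5 CPM, were higher. Glutathione genes lay on both sides, since the transferases Gstm1 and Gstm3 and the synthesis enzyme Gclc were lower by 1.39, 2.19 and 0.65 on the log2 scale. Without tissue replicate 1, 4 genes of the list were higher, and without tissue replicate 2, 5 were.

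Genes of the fetal-like, regenerative epithelium were mostly higher, with 16 of 20 called higher and 1 lower (median 2.42). Summed over the list, they held 7230 and 8389 CPM in organoids and 7746 and 7966 CPM in tissue, so the sums overlapped. Ly6a, also called Sca-1 and widely used as a marker of this state, stood at 1460 and 1234 CPM in organoids and at 148 and 169 CPM in tissue (3.33 ± 0.35, adjusted p = 9.8e-05). Cldn4, a tight junction protein, stood at 45.0 and 74.8 CPM against 6.80 and 8.45 CPM (3.16 ± 0.25). Clu, a chaperone of revival stem cells, rose by 2.60 on the log2 scale. Ankrd1, a YAP target, had 631 and 556 UMIs in organoids and none in tissue, at least 132-fold higher by the limit of 3 UMIs over both tissue libraries. Ccn1, another YAP target, was lower, at 13.6 and 15.4 CPM in organoids against 44.6 and 52.3 CPM in tissue. S100a6 (-0.52, adjusted p = 0.24) and Ly6e (-0.03, adjusted p = 0.93) were not called. Ly6a, Ly6c1 and Ly6g are similar neighbours on chromosome 15, and reads shared between such copies can be assigned uncertainly.

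Laminin and integrin genes tie the epithelium to the basement membrane. Of 14 genes tested, 5 were higher and 4 lower, beside 28% and 27.3% of all genes, with a median of 0.21. The laminin chains Lamc1 (17.02 and 33.1 CPM in organoids, 3.19 and 2.92 CPM in tissue) and Lama5 (20.2 and 36.0 CPM against 5.65 and 6.0 CPM) rose by 3.21 and 2.45 on the log2 scale. Lamb3, a chain of laminin-332, fell by 1.00, and Lama3, its partner chain, by 4.76. The collagen-binding integrin Itga2 rose by 0.85 and its relative Itga1 fell by 2.68. The integrin genes Itga6 and Itgb1 were not called (0.05, adjusted p = 0.88, and 0.32, adjusted p = 0.30). With either tissue library left out, or with scaling by library totals, 2 genes were higher. The median was 0.028 without organoid replicate 2 and 0.0086 with library totals.

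The transcription factors of colonic identity included large changes in both directions. Of 25 genes tested, 6 were higher and 11 lower, with a median of -0.39. Isx, an intestinal homeobox factor that represses vitamin A uptake genes, stood at 87.8 and 107 CPM in organoids and at 5.52 and 7.55 CPM in tissue (4.11 ± 0.26). Klf4, a factor of goblet and surface cells, stood at 54.6 and 58.3 CPM against 450 and 527 CPM (-2.89 ± 0.28). Cdx2, the master factor of the intestine, rose by 1.21, while Hnf4g fell by 1.26 on the log2 scale.

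The Hox genes, whose order along the chromosome mirrors position along the body axis, differed gene by gene. Hoxb13, the most posterior gene of its cluster, stood at 75.1 and 37.8 CPM in organoids against 243 and 257 CPM in tissue (-1.86 ± 0.41), and Hoxd13 at 2.28 and 2.92 CPM against 24.7 and 17.1 CPM. Hoxd12 had no UMI in organoids and 82 and 41 in tissue, at least 133-fold lower, and Hoxd10 fell by 5.79 on the log2 scale. Hoxb8 rose from 0.107 and 0.355 CPM in tissue to 9.28 and 14.6 CPM in organoids, and Hoxa11 by 2.98 on the log2 scale. Hoxb9, Hoxa9 and Hoxa10 were not called, with log2 fold changes between -0.02 and 0.20. The labels name the colon for both sources and no stretch of it. With either tissue library left out, 6 genes of the list were lower instead of 11.

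Targets of p53 moved both ways over all cells, with 6 of 17 higher and 5 lower, beside 28% and 27.3% of all genes. The median was -0.12, and -0.22 to 0.14 with single libraries left out. Phlda3, an inhibitor of AKT, stood at 44.4 and 36.6 CPM in organoids and at 2.82 and 3.82 CPM in tissue (3.86 ± 0.30), the death effector Bax at 336 and 208 CPM against 59.5 and 68.0 CPM, and the nuclease Aen rose by 1.48. The antiproliferative gene Btg2 stood at 25.4 and 29.7 CPM against 382 and 418 CPM (-3.64 ± 0.27), Trp53inp1, a regulator of autophagy, fell by 3.31 and the death effector Pmaip1 by 1.53 on the log2 scale. Cdkn1a, which encodes the cell cycle inhibitor p21, stood at 69.0 and 68.0 CPM against 105 and 125 CPM and was not called (-0.52, adjusted p = 0.10), nor was Mdm2 (0.46, adjusted p = 0.089).

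Immediate early and heat shock genes, which respond within minutes to stress and handling, were lower in 14 of 17 cases and higher in 2, with a median of -2.59. The inducible chaperone Hspa1a stood at 3.11 and 3.54 CPM in organoids and at 209 and 257 CPM in tissue (-5.91 ± 0.30), Fosb at 5.87 and 10.97 CPM against 223 and 309 CPM, and the phosphatase Dusp1 at 5.21 and 8.45 CPM against 171 and 194 CPM. The constitutive chaperone Hspa8 rose by 1.05 and Ier3 by 3.59 on the log2 scale. Tissue barcodes also had the higher mitochondrial shares and an added release step, and the part of either in these values was not tested. With at most 5% mitochondrial UMIs, 15 genes were lower and the median was -2.82.

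The same comparison was made within cycling cells and within non-cycling cells. These classes are coarse, and the division genes named above still stood higher in organoids within each. Log2 fold changes among cycling and non-cycling cells were 1.98 and 3.01 for Rrm2 and 1.73 and 2.83 for Ccne1. They were 2.64 and 1.80 for the histone gene Hist1h1b and 1.43 and 1.09 for Aurka, which was not called among non-cycling cells. Among cycling cells, 3343 of 15720 genes (21.3%) were higher and 3373 (21.5%) lower, 42.7% in all, and among non-cycling cells 2573 of 13303 (19.3%) were higher and 2874 (21.6%) lower, 40.9% in all. Leaving out tissue replicate 1 or 2 gave counts between 1153 and 2214. The 40 cell cycle genes, Rrm2, Ccne1 and Aurka among them, chose the classes, so their values are a description and they are not counted here. Of the other list genes that were higher over all cells, 138 were tested among cycling cells, where 114 were higher, and 131 among non-cycling cells, where 120 were higher. Of those lower over all cells, 172 of 203 were lower among cycling cells and 169 of 198 among non-cycling cells. Both classes are parts of the same cells that gave the calls over all cells, so this agreement is partly built in. How often all called genes repeat their call in a class was not counted. Goblet genes were lower in both classes, 22 of 23 and 20 of 23, and ribosome biogenesis genes higher in both, 24 of 25 and 22 of 25, although without tissue replicate 1 or 2 only 11 or 13 of the latter were called among cycling cells.

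Of 24 Wnt target and stem cell genes tested, 14 had a lower log2 fold change between organoids and tissue among cycling than among non-cycling cells and none had a higher one, beside 6.43% lower and 13% higher over 14542 genes. Those shares are 935 and 1892 genes, 19.4% together, and with RLE scaling they were 1102 and 1194. Without organoid replicate 1 they were 499 and 546. Lgr5 stood at 127 and 293 CPM in cycling organoid cells against 77.7 and 57.2 CPM in cycling tissue cells, and at 133 and 197 CPM against 5.52 and 4.42 CPM in non-cycling cells. Within tissue its level was thus higher in the cycling than in the non-cycling cells of each library. Within organoids the classes were close in replicate 1, and cycling cells were higher in replicate 2. No test was made within a source, and levels within a class do not give the share of its RNA. Its log2 fold change was 1.91 ± 0.33 among cycling and 5.01 ± 0.27 among non-cycling cells, and the difference of these, tested as an interaction with the library as a block, was -3.12 ± 0.19 (adjusted p = 1.04e-06). Smoc2, a secreted protein of stem cells, stood at 42.6 and 57.5 CPM in cycling organoid cells against 73.7 and 65.8 CPM in cycling tissue cells and was not called there (-0.17, adjusted p = 0.60), while it rose by 1.77 among non-cycling cells. The interaction of Smoc2 lost its call without organoid replicate 1. Axin2 and Ascl2 were higher in both classes, by 1.61 and 2.58 among cycling and by 2.58 and 3.72 among non-cycling cells.

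**Figure D4:**
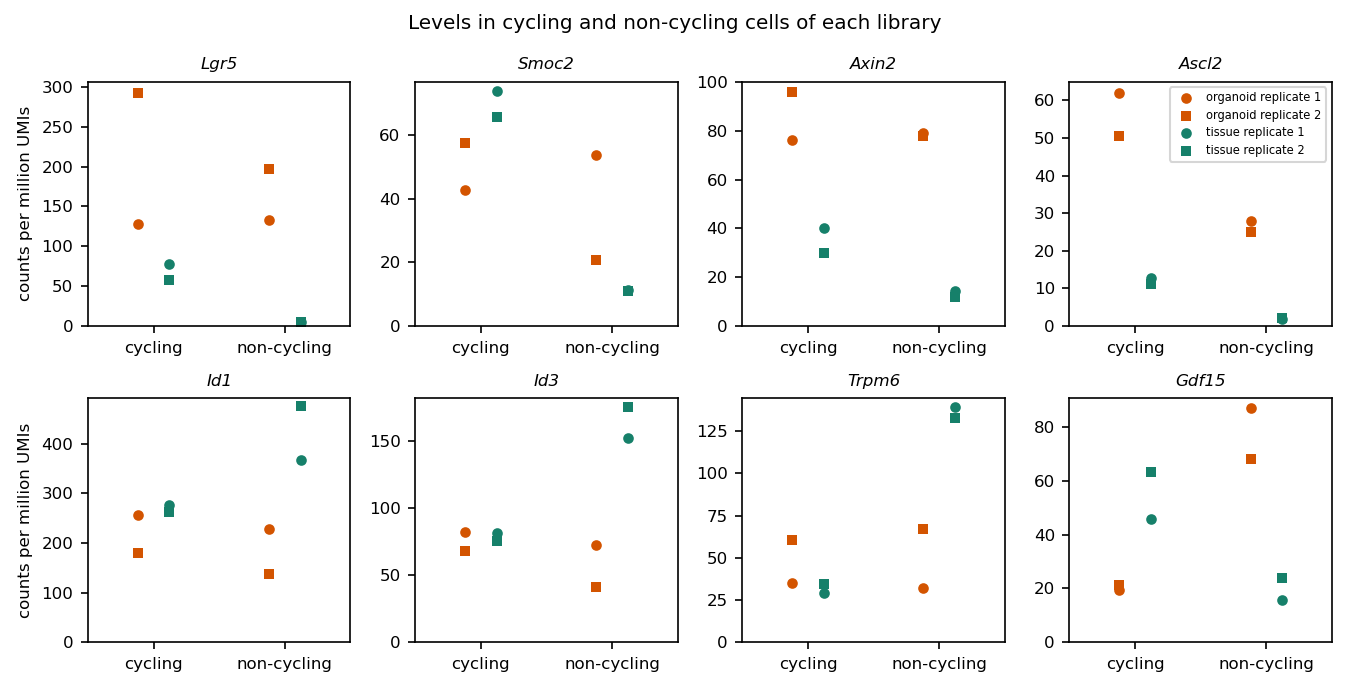
Points give the level of 8 genes in CPM (vertical axes from 0) in the cycling and non-cycling cells of each library, organoids in orange and tissue in green. Lgr5 and Axin2 lie high in both classes of organoid cells, and Id1 and Id3 lie close together in cycling cells and apart in non-cycling cells.

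Of 8 BMP response genes tested, 3 had a higher log2 fold change among cycling than among non-cycling cells, 1 a lower one and 4 were not called. Id1 stood at 257 and 180 CPM in cycling organoid cells against 277 and 263 CPM in cycling tissue cells (0.06, adjusted p = 0.90), and at 228 and 137 CPM against 367 and 475 CPM in non-cycling cells (-1.20 ± 0.31, adjusted p = 0.014). Id3 was alike: 0.29 (adjusted p = 0.40) among cycling and -1.51 ± 0.30 among non-cycling cells. The interaction was called for both, 1.30 ± 0.14 and 1.86 ± 0.16, under each alternative that was fitted. The third was Id2, which was higher in both classes, by 1.93 and 0.83 on the log2 scale. Smad6 and Smad7 were lower in both classes, Smad6 by 2.07 and 2.90 and Smad7 by 2.15 and 2.28 on the log2 scale, with no difference called between the classes.

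Of 25 colonocyte transport genes tested, 11 had a higher log2 fold change among cycling than among non-cycling cells and 3 a lower one. The 3 were Cftr, a chloride channel (interaction -1.66), the guanylin family peptide gene Guca2b (-1.45) and the butyrate carrier Slc5a8 (-2.87). That of Slc5a8 rests on very low organoid levels. Aqp4, a water channel, Slc16a1, a carrier of lactate and butyrate, and Cdkn2b of the TGF-beta list were not called among cycling cells (0.30, -0.22 and -0.12) and were lower among non-cycling cells, by 1.60, 1.87 and 1.08 on the log2 scale, with the interaction called for each. That of Cdkn2b was no longer called without organoid replicate 1 (0.65, adjusted p = 0.13). Krt20 was lower in both classes, at 0.189 and 0.115 CPM against 8.68 and 28.5 CPM among cycling cells and at 9.04 and 6.80 CPM against 145 and 195 CPM among non-cycling cells. The non-cycling organoid cells thus held more Krt20 than the cycling ones. They remained below either class of tissue replicate 2 and below the non-cycling cells of tissue replicate 1. Against the cycling cells of tissue replicate 1 (8.68 CPM), organoid replicate 1 lay slightly above and organoid replicate 2 below. Of 28 hypoxia and glycolysis genes, 11 had a higher log2 fold change among cycling cells and 4 a lower one, with Aldoa, an enzyme of glycolysis, higher by 2.11 among cycling and by 0.79 among non-cycling cells (interaction 1.36 ± 0.11). Ly6a rose by 4.30 among cycling and by 2.72 among non-cycling cells.

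Among non-cycling cells 11 of 17 p53 targets were higher and 4 lower, with a median of 0.98, and among cycling cells 5 were higher and 6 lower, with a median of 0.19. Without tissue replicate 1 or 2, 8 or 7 were higher among non-cycling cells and 2 among cycling cells. The log2 fold change was lower among cycling than among non-cycling cells for 10 of the 17 and higher for none. Gdf15, a stress-induced cytokine, fell by 1.09 among cycling cells, rose by 1.98 among non-cycling cells and was not called over all cells. Among the larger lists, the log2 fold change was also lower among cycling cells for 9 of 17 EGFR and MAPK response genes and higher for none, and it was higher for 12 of 29 cholesterol and fatty acid synthesis genes and lower for none.

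**Figure D5:**
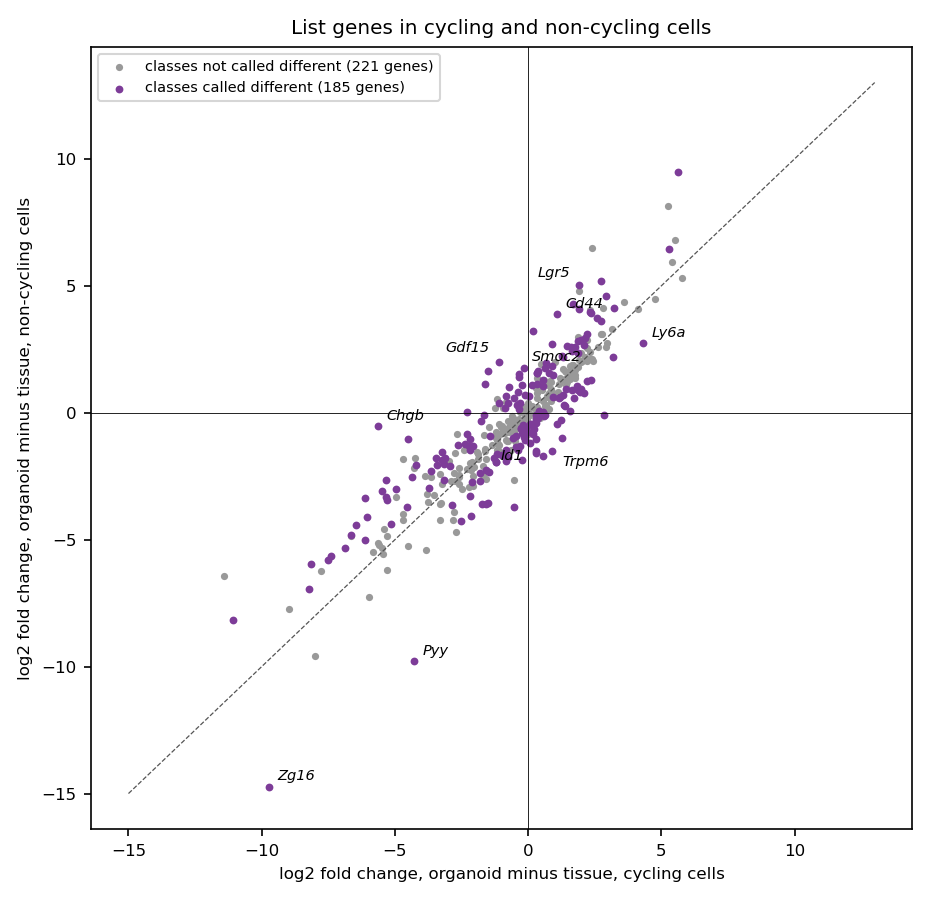
Each of 406 list genes with a UMI in both groups of both classes is placed by its log2 fold change between organoids and tissue among cycling cells (horizontal) and non-cycling cells (vertical), with the dashed line marking equal values and purple points marking the 185 genes whose difference between classes was called. Lgr5 and Cd44 lie above the line, and Id1 and Trpm6 lie below it.

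Of 25 enteroendocrine genes tested among non-cycling cells, 12 were lower in organoids, 10 were not called and 3 were higher, with a median of -1.47. The 3 were the transcription factor genes Neurog3, Neurod1 and Insm1. Neurog3 stood at 63.0 and 15.7 CPM in the non-cycling cells of the organoid libraries against 0.655 and 0.190 CPM in those of tissue, a log2 fold change of 6.47 ± 0.74 (adjusted p = 2.4e-04), and at 1.14 and 1.63 CPM against 0.343 and 0.308 CPM in cycling cells. Neurod1 and Insm1, which act after Neurog3, were higher among non-cycling cells by 1.13 and 1.64 on the log2 scale, although both were lower over all cells. The hormone genes Pyy and Gcg were lower in either class. Chgb stood at 0.602 and 221 CPM in the non-cycling cells of the organoid libraries, so organoid replicate 2 carries nearly all of it. The difference of Neurog3 between the classes was not called (-3.88, adjusted p = 0.10), and those of Neurod1 and Insm1 lost their call without organoid replicate 1, as did that of Insm1 without tissue replicate 2 (-1.06, adjusted p = 0.63). These values rest on 119 and 120 organoid cells.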

How the data were processed

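The authors aligned and counted droplet libraries with Cell Ranger (version 6 and mm10 per the labels, version 7.1.0 per the file headers), and the deposited values are UMI counts per gene and barcode. Intron counting is not given in the sources used here. Barcodes were filtered as stated and UMI counts were summed per library. The 2 organoid libraries were compared with 2 tissue libraries by edgeR 4.0.16 in R 4.3.3 (filterByExpr, TMM, quasi-likelihood test, Benjamini-Hochberg adjustment over all genes tested, threshold 0.05). The fit was also run on simulated counts in which few genes changed, unlike here, where 55.3% of genes were called. DESeq2 1.42.0 was an alternative. Cell counts and sums used Python 3.11.15. No doublet caller was run and free RNA was not estimated. Genes named are, first, the 8 highest and 8 lowest called whose log2 CPM averaged 5 or more and whose CPM values did not overlap between the groups. Mitochondrial, ribosomal protein, immunoglobulin and unnamed genes and Epcam were left out of these. Further ones are the 3 highest and 3 lowest called of each list averaging 3 or more, and Lgr5, Axin2, Id1, Bmp2, Krt20, Muc2, Chga and Dclk1. All other genes named were chosen after their values were seen. The members and lists were chosen with earlier results of these data known. Leaving out a replicate, other scalings, filters and depths were tried as alternatives. Some list genes are not reported here.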

Additional observations from a re-analysis of the deposited data

Results flagged for a closer look

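In 2 list genes the difference between organoids and tissue was called in opposite directions in cycling and non-cycling cells, and the difference between the classes was itself called. Trpm6, a magnesium channel of the colonocyte, stood at 35.3 and 60.4 CPM in cycling organoid cells against 29.4 and 34.5 CPM in cycling tissue cells, and at 31.9 and 67.2 CPM against 139 and 133 CPM in non-cycling cells. Its log2 fold changes were 0.88 and -1.51, and their difference was 2.47. Gdf15, a stress-induced secreted factor, stood at 19.5 and 21.4 CPM against 45.6 and 63.0 CPM in cycling cells and at 87.1 and 68.0 CPM against 15.6 and 23.8 CPM in non-cycling cells, with a difference between the classes of -3.02. Groups of 2 libraries are too small for a check of single outlying libraries.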

How the results depend on the processing

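None of the 99 genes named by rule turned its direction over all cells, but the balance of all calls and the medians of 4 lists did. The further genes named in the text were not followed through the alternatives. Slightly more genes were higher than lower over all cells, and more were lower with DESeq2, RLE scaling, library totals (3610 higher and 5056 lower), the block, 3 Epcam UMIs, thinning, glmTreat and without either tissue library. The TGF-beta median of -0.34 was 0.32 without organoid replicate 1, 0.22 from 3 Epcam UMIs on, 0.03 at 5% mitochondrial UMIs and 0.21 thinned, the Notch median of 0.59 was -0.13 thinned, and without tissue replicate 2 the niche signal median of -0.06 was 0.13 and the p53 median of -0.12 was 0.14. The niche signal median was also above 0 with no filter, at 20% mitochondrial UMIs and with all 6 libraries, and the p53 median without organoid replicate 2. Within the classes, some list medians turned as well, and the interaction of Chgb, -4.00, was 1.30 without organoid replicate 2. Over all cells, leaving out each library in turn gave 2733 to 6209 genes higher and 3364 to 5679 lower, cells thinned to 2000 UMIs gave 2926 and 3077, and the test for at least a 2-fold difference (glmTreat) gave 2023 and 2728. Leaving out each library gave 1183 to 4425 higher and 2048 to 3946 lower among cycling cells, 1153 to 3431 and 1608 to 3922 among non-cycling cells, and 546 to 2395 genes with a higher and 499 to 920 with a lower log2 fold change in cycling than in non-cycling cells. RLE scaling gave 1194 with a higher one. Leaving out a library leaves its group with 1 sample, which is assumed to vary like the other group. The mean cycling share was 93.3% in organoids and 32.9% in tissue from 2 UMIs on, 77.0% and 10.3% from 5 UMIs on, and 96.8% and 51.2% without thinning. A cut at 5 UMIs leaves the non-cycling class as it is. DESeq2 called 4480 genes higher and 4491 lower. A replicate block gave 4611 and 4620 over all cells. The deviations of the organoid and tissue libraries numbered 1 from their group means did not go together (r = -0.045 across genes). The labels do not say whether same-numbered libraries share an animal or batch, and this correlation cannot decide it. In both sources replicate 2 had the higher median mitochondrial share over all barcodes, 8.63% in organoids and 16.2% in tissue. Of 99 named genes, 12 lost their call without tissue replicate 1 and 13 without tissue replicate 2, 16 with glmTreat, 7 with thinning, 7 at 20% mitochondrial UMIs, 6 with library totals and 2 with the block. The genes concerned included Acly, Bst2, Cdx2, Etv4, Gclm, Hmgcs1, Hnf4g, Hspa8, Ihh, Itga2, Lamb3, Notch1, Oas1a, Tgif1 and Vegfa, and the cause was not tested.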
